A study of Mus musculus with 8 samples.

Results

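An oncofetal RNA network of 9 genes was read in 2 pluripotent states of the mouse: the RNA-binding proteins Lin28a and Lin28b, the ubiquitin ligase Trim71, the exonuclease Dis3l2, the chromatin proteins Hmga1 and Hmga2, and the RNA-binding proteins Igf2bp1, Igf2bp2 and Igf2bp3. They were taken by symbol from the table of each library, and each of the 9 had 1 of the 23699 listed entries, at a single locus and with a complete estimate in 8 of 8 libraries. Polyadenylated RNA was sequenced from 4 libraries of embryonic stem cells (mESC), which stand for the naive state of the inner cell mass, and 4 of epiblast stem cells (mEpiSC), which stand for the primed state after implantation. The mESC libraries 1 and 2 came from the line ESF122 and 3 and 4 from ESF175/1, grown with the cytokine LIF. The mEpiSC library 1 came from EpiSC5, 2 and 3 from EpiSC7 and 4 from EpiSC9, grown with the growth factor FGF2. No treatment or genetic change is given for any line. Serum replacement and a feeder layer of irradiated mouse embryonic fibroblasts were common to both states, and the feeders were removed before extraction. Each line belongs to 1 state, so state, medium and line cannot be told apart, and a lone EpiSC5 or EpiSC9 library has no replicate of its own. Nothing in the labels says whether libraries of 1 line were separate cultures, so p-values measure the spread between these libraries, which may in part be technical.

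Lin28 proteins bind the precursor of the microRNA let-7 and have it tailed with uridines, and Dis3l2 degrades the tailed precursor. Mature let-7 in turn represses mRNAs that carry a match to its seed in the 3′ UTR, among them the mRNAs of Lin28, Trim71, Hmga2 and the Igf2bp proteins themselves, so that these genes are known as an embryonic set that is silenced as tissues differentiate. Igf2bp proteins bind and stabilise mRNAs such as that of Igf2, and Hmga proteins bend AT-rich DNA in chromatin. In the early embryo Lin28a marks pluripotent cells in general, while Hmga2 is known to appear as cells leave the naive state.

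The let-7 seed and a search for matches to it in these genes are shown first, because they rest on sequence alone and not on the RNA levels. RefSeq (GRCm38.p6) lists 11 mature mouse let-7 family members with a sequence, and 10 of them share the seed GAGGUAG, given here in capitals as bases 2 to 8 of 5 examples and of let-7j, whose seed is GAGGUAU.
let-7a-5p: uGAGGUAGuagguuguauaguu
let-7b-5p: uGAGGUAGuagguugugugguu
let-7d-5p: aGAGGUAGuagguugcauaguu
let-7g-5p: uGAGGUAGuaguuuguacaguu
miR-98-5p: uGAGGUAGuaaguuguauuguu
let-7j: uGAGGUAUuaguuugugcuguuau
The mature forms were not measured here. The libraries hold polyadenylated RNA, and 11 of the 12 let-7 family hairpin entries were listed at 0 in 8 of 8 libraries.

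The mRNA match to the shared seed, CTACCTC, was searched on the mRNA strand of the longest annotated 3′ UTR of each gene (GENCODE vM21, GRCm38). Hmga2, Lin28b, Trim71 and Igf2bp1 held 4 matches each, Lin28a held 2, Hmga1, Igf2bp2 and Igf2bp3 held 1 each, and the 350-base 3′ UTR of Dis3l2 held none. The match nearest the stop codon of each of the 8 genes is printed 5′ to 3′ with up to 30 bases, with the match and, where present, the A that follows it in capitals.
Lin28a, chr4:134005189-134005218, minus strand: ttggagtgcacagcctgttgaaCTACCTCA
Lin28b, chr10:45381022-45381051, minus strand: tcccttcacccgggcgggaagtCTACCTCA
Trim71, chr9:114512472-114512501, minus strand: aaagtacaacattgcctaagtcCTACCTCA
Hmga1, chr17:27563270-27563298, plus strand: catcttctcctctgttcacaaaCTACCTC
Hmga2, chr10:120364224-120364253, minus strand: agggggcgccgacattcaatttCTACCTCA
Igf2bp1, chr11:95961778-95961807, minus strand: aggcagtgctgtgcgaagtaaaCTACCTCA
Igf2bp2, chr16:22059473-22059502, minus strand: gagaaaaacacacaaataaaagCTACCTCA
Igf2bp3, chr6:49086787-49086816, minus strand: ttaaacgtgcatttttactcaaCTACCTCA
The Hmga1 site alone of those printed lacks the A. Of the tested genes whose 3′ UTR was within 25% of the length of that of Hmga2 (3014 bases), 16.8% held at least 1 match and 0.121% held 4 or more. The share with a match was 24.5% around the length of Lin28b (4445 bases), 30.03% around Trim71 (5512 bases) and 33.5% around Igf2bp1 (6337 bases), and 3.49% around the short 3′ UTR of Dis3l2. A match is a description of the letters and not a measured site of binding.

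Levels are the deposited FPKM, in which the fragments of a gene are divided by its transcript length and by the library's total, and means are given ± SD with n = 4 libraries per state. The deposited intervals imply 24800000 to 38600000 fragments per library, and 580 (Hmga2, mESC 4) to 39309 (Igf2bp1, mEpiSC 1) fragments behind each value of the 9 genes. The labels were checked on marker lists: 8 of 8 naive markers were lower and 5 of 6 primed markers higher in mEpiSC, against 14.2% and 23.1% of all genes tested. Pou3f1 was the primed marker not called. The naive markers Zfp42, Tbx3, Dppa3 and Prdm14 were below 1 FPKM in every mEpiSC library, so they entered the test only through mESC. Esrrb, Nr0b1 and Tfcp2l1 were below 1 FPKM in most mEpiSC libraries and also passed the filter (1 FPKM in 4 or more libraries) through mESC. The primed markers Fgf5, Cer1 and Cdh2 were below 1 FPKM in mESC 3 and 4 and passed through mEpiSC, where they are high. For all of these markers the filter favoured the direction called. Pou5f1, which both states use, stood at 446 to 570.2 in mESC and 314 to 608 in mEpiSC. The mESC 2 library had the highest primed sum of the mESC libraries (88.4 FPKM, against 23.8 to 48.4 in the other 3). Fibroblast markers differed widely between libraries. Their sum over 14 genes was 287, 38.2, 54.1 and 7.39 FPKM in mESC 1 to 4 and 520, 281, 164 and 67.6 FPKM in mEpiSC 1 to 4, and 11 of the 14 were below 1 FPKM in mESC 4. Primitive endoderm markers summed to 2.56 to 6.47 FPKM in mESC and 14.8 to 107 FPKM in mEpiSC, highest in EpiSC5. Both replicate 4 libraries stood apart from the others by transcript length: their median log2 difference from the other libraries of their state was 0.34 for transcripts under 2000 bases and −0.29 for those of 6000 bases or more.

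Of the 9 genes, 6 were higher in mEpiSC and the other 3 did not pass the test. Differences were tested with limma on log2(FPKM + 1) over 11556 genes, with Benjamini-Hochberg adjustment over all of them and a threshold of 0.05. Hmga2 rose most, followed by Igf2bp2, Igf2bp3, Lin28b, Dis3l2 and Hmga1. The 3 that did not pass were Lin28a, Igf2bp1 and Trim71. Of all genes tested, 23.1% were called higher and 37.3% in either direction, and the median log2 fold change was 0.62 over the 9 genes and 0.08 over all genes. The 4 mESC and 4 mEpiSC values of the 6 called genes did not overlap, which held for 22.2% of all genes in that direction and 37.1% in either. Hmga2 and Igf2bp2 were also past a 2-fold change, as were 9.93% of all genes in that direction and 15.1% in either. These are bulk libraries, in which fewer cells that carry an RNA and less of it per cell cannot be told apart. With 1 mean per line, 2 lines against 3, only Hmga2, Igf2bp2 and Igf2bp3 were called, 3 of 9, against 12.3% of all genes.

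**Figure D1:**
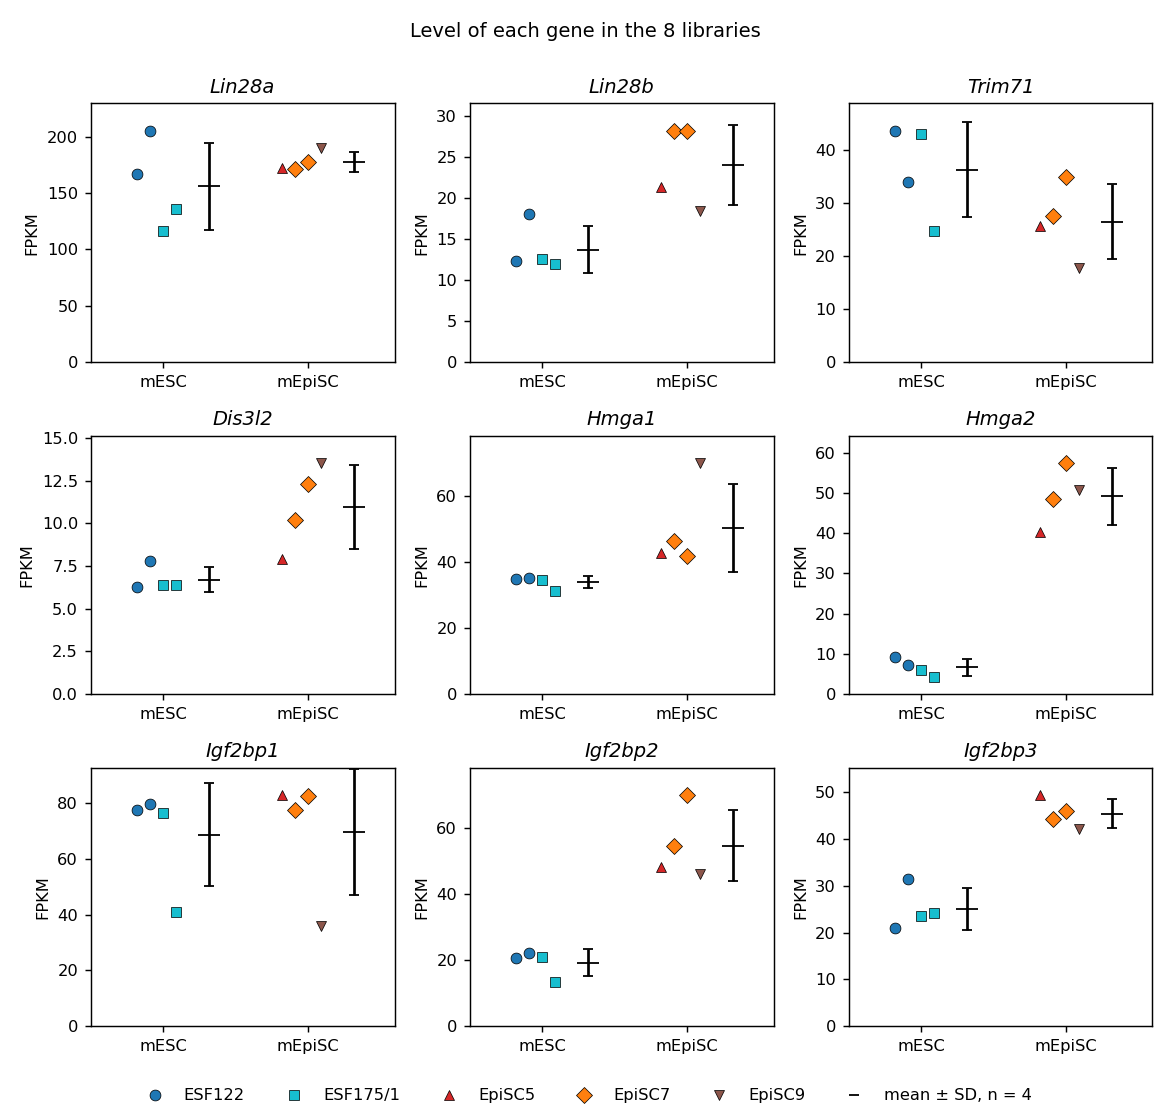
FPKM of each of the 9 genes in the 4 mESC and 4 mEpiSC libraries. Each symbol is 1 library, shaped and coloured by line, and the bar beside it is the mean ± SD of 4 libraries; the axis of each panel starts at 0. Hmga2, Igf2bp2, Igf2bp3, Lin28b, Dis3l2 and Hmga1 separate fully between the states, Lin28b and Dis3l2 only narrowly. Igf2bp1 is between 76.5 and 82.8 FPKM in all but the replicate 4 libraries (41.1 and 35.9 FPKM).

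The order of the genes by FPKM, which is per length, changed between the states. Lin28a was the most abundant in both, and its libraries did not overlap those of Igf2bp1, the second in both. In mESC, Trim71, Hmga1, Igf2bp3, Igf2bp2, Lin28b, Dis3l2 and Hmga2 followed in that order, and of these neighbours only Lin28b and Dis3l2 did not overlap. In mEpiSC the order after Igf2bp1 was Igf2bp2, Hmga1, Hmga2, Igf2bp3, Trim71, Lin28b and Dis3l2. There, Igf2bp3 stood clear of Trim71 and Lin28b stood clear of Dis3l2, while the other neighbours overlapped. Hmga2 thus moved from rank 9 to rank 5 and Trim71 from rank 3 to rank 7. Among all tested genes, the mean of Hmga2 lay at the 40.3 percentile in mESC and the 89.4 percentile in mEpiSC.

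The Lin28 genes lead the pathway. Lin28a (mm9, chromosome 4, 133559245 to 133574731), which acts with a cytoplasmic uridylyl transferase on the let-7 precursor, stood at 167, 205, 116 and 136 FPKM in mESC 1 to 4 and 172, 172, 178 and 190.4 FPKM in mEpiSC 1 to 4. The highest value and the 3 lowest were all in mESC, so the states overlapped. The log2 fold change was 0.22 (SE 0.17, 95% interval −0.17 to 0.61, limma adjusted p = 0.354). Its spread was wider in mESC (SD 38.7 around 156) than in mEpiSC (SD 8.80 around 178), and within mESC both ESF122 libraries lay above both ESF175/1 libraries.

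Lin28b (chromosome 10, 45096425 to 45190007), the paralog that is known also to hold let-7 primary transcripts in the nucleus, stood at 12.3, 18.02, 12.6 and 11.9 FPKM in mESC and 21.4, 28.2, 28.2 and 18.4 FPKM in mEpiSC. The lowest mEpiSC library, from EpiSC9, was just above mESC 2, which stood apart from the other 3 mESC libraries, and the states did not overlap. Lin28b rose by 0.76 on the log2 scale (SE 0.18, limma adjusted p = 0.011); with 1 mean per line the adjusted p was 0.104. Lin28a remained the larger part of the pair. Lin28b made up 8.20% ± 1.20 of their summed FPKM in mESC and 11.9% ± 2.46 in mEpiSC.

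Trim71 and Dis3l2 work with or beside Lin28 in let-7 control. Trim71 (chromosome 9, 114420391 to 114473487), a ubiquitin ligase and mRNA repressor of early embryos, stood at 43.6, 34.0, 43.1 and 24.7 FPKM in mESC and 25.6, 27.7, 35.0 and 17.7 FPKM in mEpiSC. The states overlapped, and in both the replicate 4 library was lowest. The log2 fold change was −0.45 (SE 0.24, 95% interval −0.98 to 0.09, limma adjusted p = 0.171). Without both replicate 4 libraries it was −0.44 (95% interval −0.80 to −0.08, limma adjusted p = 0.0502) and did not pass. A fit that blocked on replicate number called Trim71 lower in mEpiSC (limma adjusted p = 0.0198, lower in 4 of 4 pairs). These pairs rest on the replicate numbers alone, and no label states that the libraries are paired. Its transcript is 9332 bases long, and the log2 difference of the replicate 4 library from the others was −0.67 in mESC and −0.69 in mEpiSC. The part of that difference in the result was not tested.

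Dis3l2 (chromosome 1, 88600379 to 88946672), the nuclease for uridylated RNA, was the lowest of the 9 genes in mEpiSC. Its values were 6.27, 7.78, 6.40 and 6.38 FPKM in mESC and 7.92, 10.2, 12.3 and 13.5 FPKM in mEpiSC. EpiSC5 was only just above the highest mESC library, while EpiSC7 and EpiSC9 were well above it. The log2 fold change was 0.62 (SE 0.17, limma adjusted p = 0.019). The call was lost in 6 of 22 other fits, among them the one with 1 mean per line (adjusted p = 0.167). Leaving out mESC 1 gave an adjusted p of 0.053, leaving out mESC 3 gave 0.054, and leaving out mEpiSC 3 gave 0.058.

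Hmga2 (chromosome 10, 119798331 to 119913991), an architectural chromatin protein and the textbook let-7 target, showed the widest difference of the 9 genes. Its values were 9.24, 7.19, 5.88 and 4.37 FPKM in mESC and 40.2, 48.4, 57.4 and 50.7 FPKM in mEpiSC. The lowest mEpiSC library, from EpiSC5, was more than 4 times the highest mESC library, and no mEpiSC library came near the mESC range. The mean rose from 6.67 ± 2.07 to 49.2 ± 7.11 FPKM, a log2 fold change of 2.74 (SE 0.20, 95% interval 2.28 to 3.20, limma adjusted p = 3.97e-05). The call held in 22 of 22 other fits, with values from 2.22 to 2.90. A transcribed pseudogene on another chromosome, Hmga2-ps1, was listed at 2.63, 2.10, 1.39 and 1.40 FPKM in mESC and 10.2, 11.3, 13.95 and 9.57 FPKM in mEpiSC. How reads were divided between the gene and this copy is not known here, and 4.36% of the 50-base windows of Hmga2 also occur in transcripts of other genes.

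Hmga1 (chromosome 17, 27693519 to 27700617), the second member of the family, was more abundant than Hmga2 in 4 of 4 mESC libraries. It stood at 34.9, 35.2, 34.8 and 31.2 FPKM in mESC and 42.8, 46.6, 42.0 and 70.1 FPKM in mEpiSC. The single EpiSC9 library was far above the other 3, and the states did not overlap. The log2 fold change was 0.52 (SE 0.17, limma adjusted p = 0.037). That call was lost in 10 of 22 other fits, which included the one with 1 mean per line (adjusted p = 0.187), median ratio scaling (0.057) and those without each mESC library or without mEpiSC 2 (0.064 to 0.077). Without both replicate 4 libraries the log2 fold change was 0.31. Reads of Hmga1 are uncertain, since 86.0% of its 50-base windows also occur in transcripts of other genes.

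The balance within the Hmga family did not pass the adjusted test, although the libraries did not overlap. Hmga2 made up 16.2% ± 3.71 of the summed FPKM of the pair in mESC and 49.8% ± 6.52 in mEpiSC, with 12.3% to 20.9% against 42.0% to 57.8% over libraries. The sum itself went from 40.7 ± 3.698 to 99.5 ± 15.8 FPKM. On the log2(FPKM + 1) scale Hmga1 was 2.23 above Hmga2 in mESC and 0.01 above it in mEpiSC, a difference between states of −2.22. A two-sided exact permutation test over libraries gave p = 0.0286, the smallest that 4 against 4 can give, and 0.0571 after Benjamini-Hochberg adjustment over 4 paralog comparisons. With 4 libraries a group this family of tests can pass 0.05 only if several comparisons reach the smallest p.

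**Figure D2:**
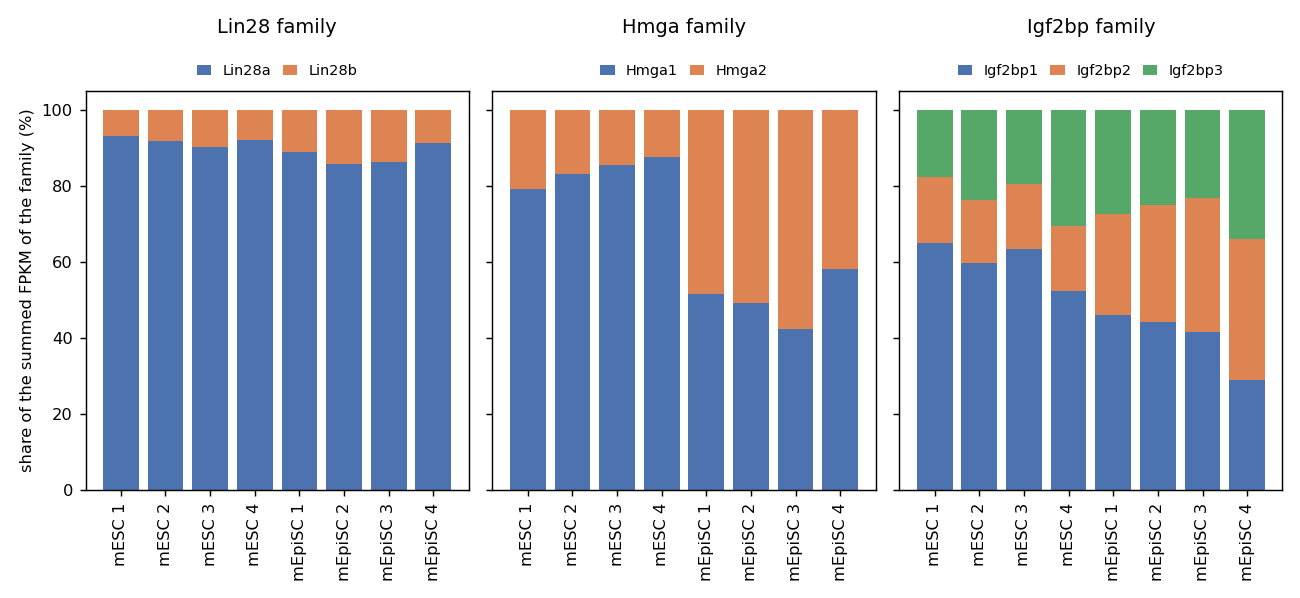
Share of each paralog in the summed FPKM of its family (%), stacked to 100 for each of the 8 libraries. Hmga2 takes 12.3% to 20.9% in the mESC libraries and 42.0% to 57.8% in the mEpiSC libraries, and Igf2bp2 takes 16.6% to 17.4% against 26.7% to 37.2%.

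Of the Igf2bp genes, Igf2bp2 and Igf2bp3 were higher in the primed state and Igf2bp1 had no called difference. Igf2bp1 (chromosome 11, 95818478 to 95867258), known for stabilising Myc and Actb mRNA, stood at 77.7, 79.6, 76.5 and 41.1 FPKM in mESC and 82.8, 77.7, 82.4 and 35.9 FPKM in mEpiSC. The other 3 libraries of each state were within 76.5 to 82.8 FPKM, and the replicate 4 library of each was far below them. The log2 fold change was −0.01 with a wide interval (−0.71 to 0.70, limma adjusted p = 0.989). Without both replicate 4 libraries it was 0.054 with an interval of −0.13 to 0.24. The Igf2bp1 transcript is 8378 bases long, and the log2 difference of replicate 4 from the other libraries was −0.91 in mESC and −1.15 in mEpiSC, against the median of −0.29 for transcripts of 6000 bases or more. Its part in the result was not tested.

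Igf2bp2 (chromosome 16, 22059082 to 22163372), the family member that is also kept in adult tissues, stood at 20.8, 22.1, 20.8 and 13.4 FPKM in mESC and 48.1, 54.5, 69.97 and 46.2 FPKM in mEpiSC. The mESC 4 library was the lowest of all and mEpiSC 3 the highest, and the lowest mEpiSC library was over 2 times the highest mESC library. The mean rose from 19.3 ± 3.97 to 54.7 ± 10.8 FPKM (log2 fold change 1.46, SE 0.19, limma adjusted p = 7.02e-04). The adjusted p stayed at or below 0.0174 in 22 of 22 other fits.

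Igf2bp3 (chromosome 6, 49035217 to 49164953), the member most confined to embryos and tumours, stood at 21.0, 31.4, 23.6 and 24.1 FPKM in mESC and 49.3, 44.2, 46.0 and 42.2 FPKM in mEpiSC. The primed libraries were close together across the 3 lines, and the highest mESC library, mESC 2, stayed below them. The log2 fold change was 0.85 (SE 0.14, 95% interval 0.54 to 1.16, limma adjusted p = 0.0018), and the call held in 22 of 22 other fits. The gene overlaps Malsu1 on the opposite strand, and 34.5% of its 50-base windows lie in transcripts of Malsu1. Whether reads were counted by strand is not known here. Malsu1, listed under the older name 2410003K15Rik, stood at 20.2, 18.9, 19.9 and 48.4 FPKM in mESC and 13.6, 19.9, 19.5 and 36.9 FPKM in mEpiSC. Its states overlapped, with replicate 4 highest in both.

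Igf2bp1 took 60.1% of the summed FPKM of its family in mESC and 40.1% in mEpiSC, Igf2bp2 took 17.1% and 32.5%, and Igf2bp3 took 22.8% and 27.4%. The share of Igf2bp2 was narrow in mESC, 16.6% to 17.4%, and included the mESC 4 library, in which Igf2bp1 and Igf2bp2 were both low. The log2 difference of Igf2bp1 over Igf2bp2 was 1.76 in mESC and 0.29 in mEpiSC (two-sided exact permutation p = 0.0286, adjusted over 4 comparisons 0.0571). For Igf2bp1 over Igf2bp3 it was 1.39 and 0.53 (exact permutation p = 0.0857, adjusted 0.0857), and for Lin28a over Lin28b 3.40 and 2.86 (exact permutation p = 0.0571, adjusted 0.0762). In all 4 comparisons the paralog that was more abundant in mESC was less far ahead in mEpiSC, and none of the 4 passed the adjusted threshold.

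**Figure D3:**
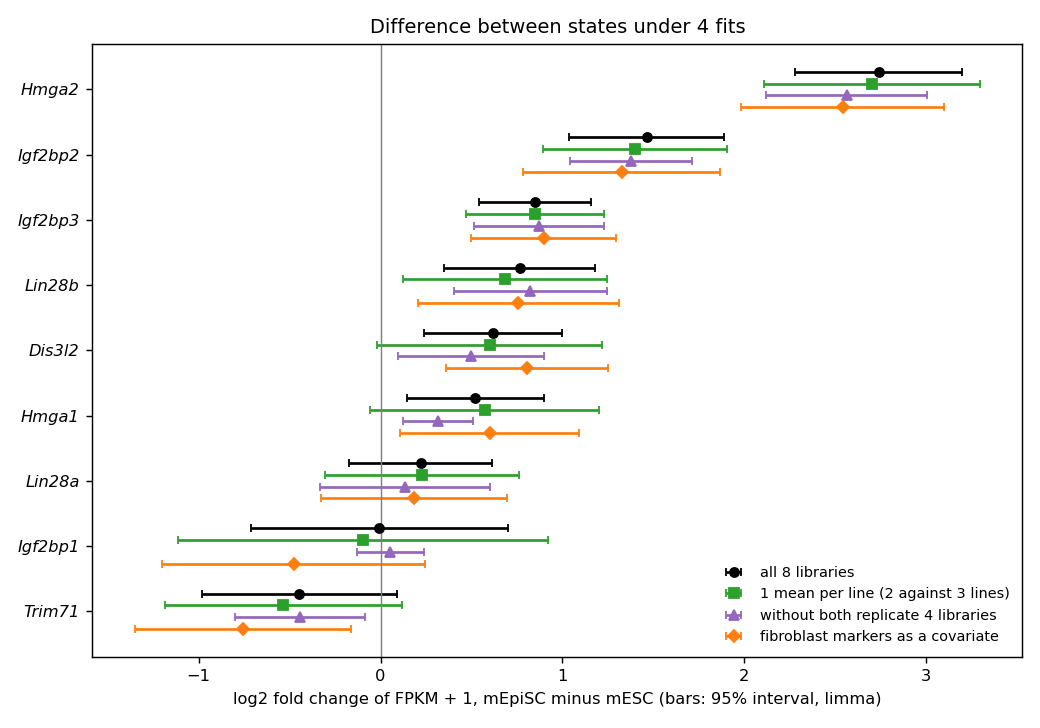
Log2 fold change of FPKM + 1 (mEpiSC minus mESC) for each gene with its 95% interval from limma, in the fit of all 8 libraries and in 3 other fits. The intervals of Hmga2, Igf2bp2, Igf2bp3 and Lin28b lie above 0 in all 4 fits, those of Lin28a and Igf2bp1 span 0 in all 4, and that of Igf2bp1 narrows without the replicate 4 libraries. The interval of Trim71 lies below 0 without the replicate 4 libraries (−0.80 to −0.08) and with the fibroblast covariate (−1.35 to −0.16). It spans 0 in the fit of all 8 libraries and with 1 mean per line, and Trim71 was called in none of the 4 fits.

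Fibroblasts of the embryo are known to express Hmga2 and Igf2bp genes, so the feeder markers are given beside these results. Of 13 fibroblast markers tested, 3 were called higher in mEpiSC, against 23.1% of all genes. All 13 had a log2 fold change above 0, from 0.51 to 2.13, with a median of 1.39. Pdgfra, Pdgfrb, Prrx1 and Twist1 were below 1 FPKM in mESC 2, 3 and 4, so they passed the filter through mEpiSC. For these the filter favoured the direction. The count called higher was 12 with the replicate block and 9 without mESC 1, and 1 without mESC 3, mESC 4 or mEpiSC 1 or with 1 mean per line. In the same order these fits called 45.0%, 29.3%, 27.1%, 34.7%, 33.3% and 12.3% of all genes in either direction. Across the 8 libraries the mean log2 level of the markers had a Pearson r of 0.67 with Hmga2 and 0.67 with Igf2bp2. It was 0.52 with Igf2bp1, 0.52 with Igf2bp3 and 0.53 with Lin28b, and all these values share the state difference. Around the state means r was 0.46, 0.35, 0.67, −0.20 and 0.02 in the same order. There it was 0.60 with Trim71, 0.11 with Lin28a, −0.23 with Hmga1 and −0.59 with Dis3l2. The mESC 1 library had more fibroblast signal (287 FPKM) than mEpiSC 2, 3 or 4 (281, 164 and 67.6 FPKM), and its Hmga2 was 9.24 FPKM against 48.4, 57.4 and 50.7 FPKM. Igf2bp2 in the same libraries was 20.8 FPKM in mESC 1 against 54.5, 69.97 and 46.2 FPKM, and Igf2bp3 was 21.0 FPKM against 44.2, 46.0 and 42.2 FPKM. With the marker mean as a covariate the log2 fold changes were 2.54 for Hmga2, 1.33 for Igf2bp2 and 0.90 for Igf2bp3, and all 3 were called by limma. Lin28b was 0.76 and Dis3l2 0.80, both called. In the same fit Hmga1 was 0.60 and lost its call (limma adjusted p = 0.067), Igf2bp1 was −0.48 against −0.01 without the covariate, Trim71 was −0.76 against −0.45, and neither of these passed. The part of feeder RNA in the levels of the 9 genes was not tested.

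**Figure D4:**
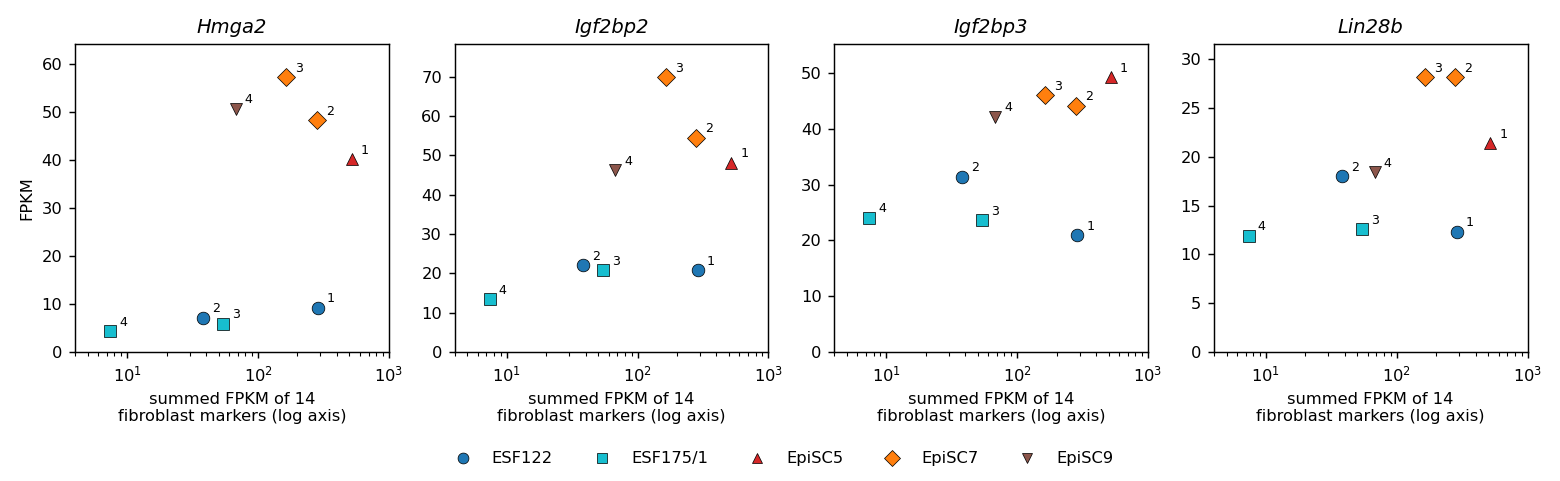
FPKM of Hmga2, Igf2bp2, Igf2bp3 and Lin28b against the summed FPKM of 14 fibroblast markers (log axis) in each library. Symbols are lines and the digit is the replicate number. The mESC 1 library lies at a fibroblast sum of 287 FPKM, to the right of 3 of the 4 mEpiSC libraries, with Hmga2 at 9.24 FPKM.

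The lines within each state were compared in a fit with 1 mean per line, which takes the spread of the lone EpiSC5 and EpiSC9 libraries from the other lines. Between ESF175/1 and ESF122 none of the 9 genes was called by limma, against 0.762% of all genes; voom on implied fragments called none either. Before adjustment 2 were under 0.05, Lin28a (−0.55 in ESF175/1, limma adjusted p = 0.244) and Hmga2 (−0.59, limma adjusted p = 0.252). The mean of each of the 9 genes was lower in ESF175/1 than in ESF122, while the median log2 difference over all genes was −0.02. The 2 ESF175/1 libraries include mESC 4, in which long transcripts were low. Without mESC 4 the log2 difference was −0.67 for Lin28a, −0.41 for Hmga2, −0.04 for Igf2bp1 and 0.16 for Trim71, which alone changed sign. The part of mESC 4 in the line differences was not tested. Without mESC 3, which leaves that library alone for its line, Hmga2 (adjusted p = 0.048) and Igf2bp1 (adjusted p = 0.013) were called lower in ESF175/1, in a fit that called 12.95% of all genes.

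Among the mEpiSC lines limma's F test also called none of the 9 genes, against 2.6% of all genes, and voom called none. Hmga1 (limma adjusted p = 0.129) and Igf2bp1 (limma adjusted p = 0.149) were under 0.05 before adjustment. In both, EpiSC9 stood apart: Hmga1 was 70.1 FPKM there against 42.8 in EpiSC5 and a mean of 44.3 in EpiSC7, and Igf2bp1 was 35.9 FPKM against 82.8 and 80.0. Without mESC 3 or mESC 4, which changes the estimate of the spread, both were called (adjusted p = 0.039 or 0.038 for Hmga1 and 0.0091 or 0.0089 for Igf2bp1), in fits that called 19.2% and 19.1% of all genes. The EpiSC9 library is also replicate 4, so that line and library cannot be told apart.

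The other genes of the pathway were read from 7 lists. The microRNA machinery and regulators of let-7 processing had 21 tested members, of which 4 were higher, 2 lower and 15 not called, with a median log2 fold change of 0.24. These shares lie near those of all genes, 23.1% higher and 14.2% lower. Prkra, a partner of Dicer, rose from 5.78 ± 1.02 to 18.1 ± 6.51 FPKM (1.45, limma adjusted p = 0.0016). Msi1, an RNA-binding protein reported to act with Lin28, rose from 6.43 ± 2.30 to 31.0 ± 16.7 FPKM (1.97, limma adjusted p = 0.0065), and Hnrnpa1, which binds let-7 precursors, rose by 0.56 (limma adjusted p = 0.0069). The count moved with the fit, as did the share of all genes called. Without both replicate 4 libraries 10 members were called higher and 1 lower, without mEpiSC 4 alone 8 were higher, and with the replicate block 9 were higher and 3 lower. Without mESC 1, mEpiSC 2 or mEpiSC 3 there were 3, all higher, and with 1 mean per line there was 1. Of all genes, 45.1% were called without both replicate 4 libraries, 41.4% without mEpiSC 4 and 45.0% with the replicate block. It was 29.3%, 29.9% and 28.7% without mESC 1, mEpiSC 2 or mEpiSC 3, and 12.3% with 1 mean per line, against 37.3% in the main fit.

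Of 12 tested genes of the RNA exosome and the Dis3 paralogs, 5 were lower in mEpiSC, against 14.2% of all genes. The other 7 did not pass, with Dis3l, Exosc8 and Exosc3 at 0.0043, −0.02 and −0.06, and the median of the list was −0.36. Dis3, the catalytic nuclease of the nuclear exosome, fell from 37.2 ± 2.20 to 18.2 ± 5.99 FPKM (−1.05, limma adjusted p = 0.0046). Exosc10, the second nuclear nuclease, fell from 32.6 ± 1.40 to 24.0 ± 1.18 FPKM (−0.43, limma adjusted p = 0.0082), and the core subunit gene Exosc1 fell by 0.62 (limma adjusted p = 0.010). With 1 mean per line none of the 12 was called, with fibroblast markers as a covariate 2 were, and without mESC 3, mESC 4, mEpiSC 1 or mEpiSC 3 there were 3. Of all genes, the fit with 1 mean per line called 12.3% and the covariate fit 29.2%. Without mESC 3, mESC 4, mEpiSC 1 or mEpiSC 3 it was 27.1%, 34.7%, 33.3% and 28.7%.

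Of 28 other mRNAs known as let-7 targets, 15 were higher in mEpiSC, against 23.1% of all genes, and the other 13 did not pass; the median log2 fold change was 0.71. Cdk6, a G1 kinase, rose from 7.18 ± 1.65 to 22.2 ± 2.70 FPKM (1.52, limma adjusted p = 3.23e-04). E2f5 rose from 12.8 ± 2.93 to 38.0 ± 5.38 FPKM (1.51, limma adjusted p = 4.36e-04) and the transcription factor gene Arid3a from 2.95 ± 1.03 to 10.2 ± 2.12 FPKM (1.52, limma adjusted p = 0.0012). The growth regulators Mycn and Nras differed by −0.05 and 0.17 and did not pass; they were picked here after their values were seen. With 1 mean per line 10 were higher. Without both replicate 4 libraries 13 were higher and 2 lower. In either direction, these fits called 12.3% and 45.1% of all genes.

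The targets with and without a seed match are given side by side; the difference between them was not tested. Of the 28, 20 held at least 1 CTACCTC in the longest 3′ UTR, and 11 of these were called higher with a median log2 fold change of 0.71. The 8 without a match had 4 called higher and a median of 0.75. Over all 10262 tested genes with an annotated 3′ UTR, the share called higher was 23.1% with no match, 28.0% with 1, 31.0% with 2 and 34.8% of the 23 genes with 3 or more, 4 of which are Lin28b, Trim71, Hmga2 and Igf2bp1. The genes with matches also had longer 3′ UTRs. Among genes with 3′ UTRs of 2000 bases or more, 28.5% of 2444 without a match and 30.8% of 646 with a match were called higher. Among the 4 genes with 4 matches each, Hmga2 and Lin28b rose, and the log2 fold changes of Igf2bp1 and Trim71 were −0.01 and −0.45.

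RNAs known to be bound by the Igf2bp proteins included the widest differences of the 7 lists. Of 6 tested, H19, Igf2 and Cd44 were higher, against 23.1% of all genes, and Actb, Myc and Btrc did not pass. H19, an imprinted noncoding RNA, rose from 18.7 ± 21.5 to 157 ± 40.2 FPKM (3.54, limma adjusted p = 0.0026). Igf2, the growth factor for whose mRNA the family is named, rose from 11.98 ± 14.3 to 62.2 ± 22.4 FPKM (2.81, limma adjusted p = 0.0092). Cd44 rose by 1.56 (limma adjusted p = 0.0037). Fibroblasts of the embryo also express these 3 RNAs, and the SD of H19 and Igf2 in mESC exceeded their means. With the fibroblast markers as a covariate 3 of the 6 were called higher and the median of the list was 0.54 in place of 0.79. The part of feeder RNA in these 3 was not tested.

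Of 7 proteins known in complexes with Igf2bp1, none was called by limma or by voom, against 37.3% and 34.2% of all genes. Dhx9 alone had an unadjusted p under 0.05 (−0.34, limma adjusted p = 0.093). Syncrip (−0.29) and Hnrnpu (−0.37) came next, with limma adjusted p of 0.143 and 0.181. Under median ratio scaling 1 of the 7 was called lower, in a fit that called 38.85% of all genes in either direction. Of 5 genes known as targets or partner of Trim71, only Rbl2, a pocket protein that restrains the cell cycle, was called. It fell from 1.64 ± 0.387 to 0.706 ± 0.0901 FPKM (−0.62, limma adjusted p = 0.0098). Over all genes 14.2% were called lower and 37.3% in either direction, so 1 of 5 lower lies near the share of all genes. Rbl2 is near the floor: its mEpiSC values lay below 1 FPKM, so it passed the filter only through mESC, where it is higher. With a mean of at least 5 FPKM, 4 of the genes were tested and none was called. Rbl1 (0.28, limma adjusted p = 0.088) and Egr1 (0.65, limma adjusted p = 0.183) did not pass. With the replicate block 1 of the 5 was higher and 1 lower, without both replicate 4 libraries 1 was higher and 2 lower, and with 1 mean per line Rbl2 was not called. In that order these fits called 45.0%, 45.1% and 12.3% of all genes.

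Of 10 other high mobility group genes tested, 5 were higher, 2 lower and 3 not called, with a median log2 fold change of 0.62. Over all genes 23.1% were higher and 14.2% lower. Hmgn3, which binds nucleosomes, rose from 4.29 ± 1.15 to 14.1 ± 2.59 FPKM (1.52, limma adjusted p = 6.48e-04). Hmgb3, a chromatin protein of the HMG-box family, rose by 1.33 (limma adjusted p = 0.0029). Hmgb2 and Hmgxb4 were the 2 that fell, by 0.42 and 0.68, and are named after their values were seen. With 1 mean per line 3 were called, all higher, in a fit that called 12.3% of all genes. Many Hmg genes have near-identical copies in the genome, so their levels are uncertain.

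**Figure D5:**
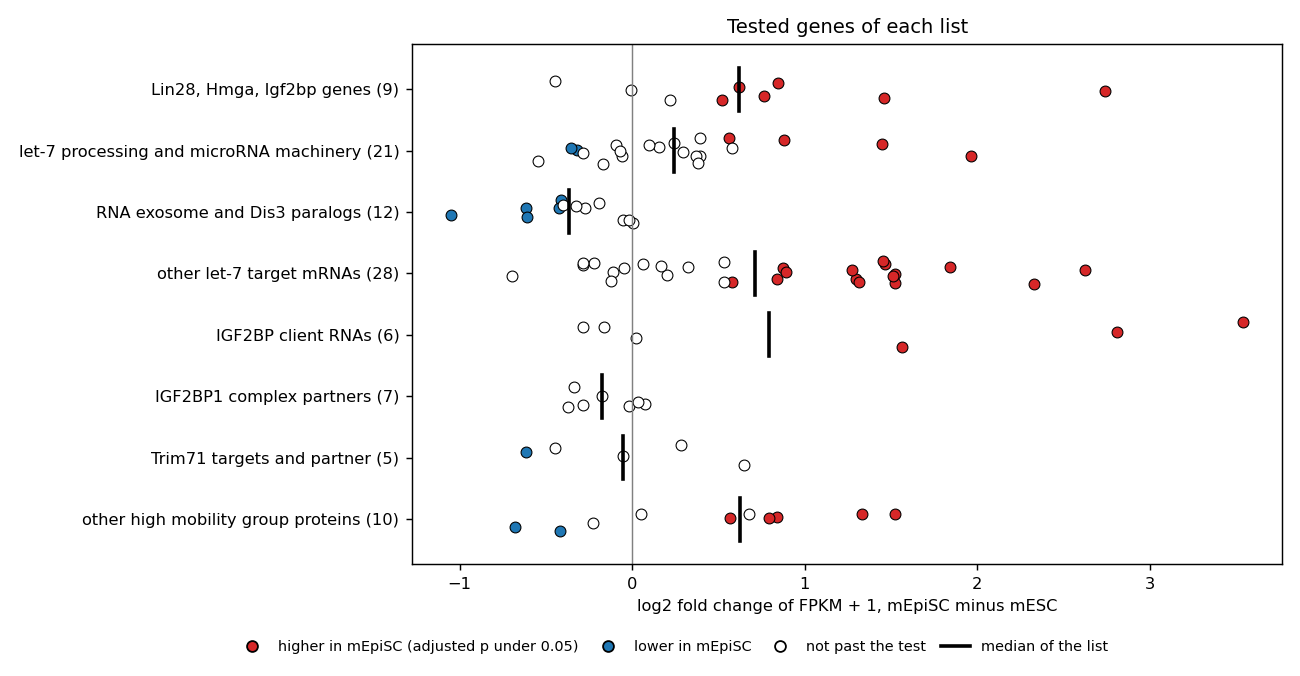
Log2 fold change of FPKM + 1 (mEpiSC minus mESC) of every tested gene of the 9-gene set and of 7 lists of related genes, with the number tested in brackets. Each point is 1 gene, red where it was called higher, blue where lower and white where it did not pass, and the bar is the median of the list. The exosome list is the only one of the 8 rows with no red point and several blue ones (5 of 12).

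The genes most like each of the 9 were found by the Pearson correlation of log2(FPKM + 1) over the 8 libraries among 7683 genes, as a description of libraries that share state, line and replicate 4. Hmga2 was closest to Igfbp5 (r = 0.995), Hmga2-ps1 (0.993) and Prnp (0.988). Igf2bp2 was closest to Hdac5 (0.994), Jph1 (0.993) and Lzts2 (0.991), and Igf2bp3 to Dpy19l4 (0.989), Ncstn (0.987) and Paip1 (0.987). Igf2bp1, whose spread lay in the replicate 4 libraries, followed Cabin1 (0.999), Phrf1 (0.999) and Lphn1 (0.998). Trim71 was closest to Wasf2 (0.968), Atad5 (0.968) and Mcf2 (0.965). Lin28b followed Obfc1 (0.986), Traf3 (0.981) and Kif3a (0.979), and Lin28a followed Aacs (0.950), Pacsin3 (0.942) and Larp7 (0.934). Dis3l2 was closest to Gstt1 (0.992), Baz1a (0.980) and Sc4mol (0.978), and Hmga1 to Acat1 (0.987), Dnajb5 (0.979) and Dll3 (0.977).

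Among the 9 genes themselves, Hmga2 and Igf2bp2 varied most alike over the 8 libraries (r = 0.97), and around the state means their r was 0.75. Around the state means the highest value was that of Trim71 and Igf2bp1 (0.88), the pair with the longest transcripts, followed by Trim71 and Igf2bp2 (0.85). Hmga1 and Igf2bp1 varied in opposite directions around the state means (−0.62), being high and low in EpiSC9.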

How the data were processed

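Gene levels were taken as the FPKM that the authors deposited per gene and library, with 95% intervals. The submitters' processing notes name TopHat2 2.0.6, Cufflinks 2.0.2 and the build mm9. Nothing in the sources used here gives the annotation, options or strand setting. Libraries were not pooled. The main tests used FPKM on a log scale; fragments implied by the intervals came out whole for 80.3% to 81.2% of low genes (tolerance 0.05). FPKM are scaled within a library, and log2(FPKM + 1) understates changes of low genes.

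Of 22987 genes at 1 locus (248 symbols at several loci left out), 11556 reached 1 FPKM in 4 or more libraries, and these entered the limma fits (version 3.58.1 under R 4.3.3, with variance trend and, through statmod 1.5.0, robust fitting). The line fits used 1 mean per line. Paralog differences used exact permutations of the 8 libraries (70 splits). The code was tested on simulated data. Other settings were pseudocounts of 0.1 and 5, other filters and scalings, no variance trend, voom on the implied fragments, blocks by replicate number or line, 1 mean per line, fibroblast markers as a covariate, and fits without single libraries or both replicate 4 libraries. The genes, the lists, the tests and the other settings were chosen with earlier results of these data known, so no list is independent support. Named were all 9 genes, the 3 of lowest p per list, and the 3 most correlated genes per member (mean of at least 5 FPKM, no predicted genes or small RNAs); others are said to be chosen after their values were seen. Some values of the named genes are not reported here.

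Same-numbered libraries deviated together across genes (r = 0.22, 0.15, 0.18 and 0.51 in number order, each over 0.1). Some libraries of different number did so as much, such as mESC 3 with mEpiSC 2 (r = 0.21) and mESC 2 with mEpiSC 3 (0.19). Only the replicate 4 libraries stood out as a pair. Same numbers were treated as pairs in a blocked fit, which is given as an alternative, and no label states this pairing. Seed matches and shared windows used GRCm38 transcripts (GENCODE vM21), a build other than mm9; gene positions are mm9, 1-based. No protein sequences were used here.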

Additional observations from a re-analysis of the deposited data

Results flagged for a closer look

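In 18 groups of 4 libraries (9 genes in 2 states), 7 had a library whose gap to its neighbour was past Dixon's 95% critical value. For independent groups chance gives about 1 in 20. The 9 genes share the same libraries, so the groups are not independent and the count cannot be weighed against that rate. Of the 7, 5 were replicate 4 libraries. Igf2bp1 was low in mESC 4 (41.1 FPKM) and in mEpiSC 4 (35.9 FPKM), Igf2bp2 was low in mESC 4 (13.4 FPKM), and Hmga1 was low in mESC 4 (31.2 FPKM) but high in mEpiSC 4 (70.1 FPKM). The other 2 were in mESC 2, where Lin28b (18.02 FPKM) and Dis3l2 (7.78 FPKM) were high; that library also had the highest primed marker sum of the mESC libraries. The part of these library differences in the results was not tested.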

How the results depend on the processing

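Each result was computed again under the other settings. The number of the 9 genes called between states was 6 and fell to 3 with 1 mean per line; with the line as a random block it was 4, without Dis3l2 (limma adjusted p = 0.063) and Hmga1 (0.073), and leaving out 1 library at a time it was 4 to 6, with 4 without mESC 1 or mESC 3. Over all genes 4305 were called, 2752 with a mean of at least 5 FPKM (fewer genes tested), 2842 with the line as a random block (correlation 0.47), 1422 with 1 mean per line, and 3132 to 4789 without 1 library. The called share that was higher was 61.9% as deposited, 51.02% under median ratio scaling and 49.78% under quantile normalization, with medians of 0.08, −0.01 and −0.02. The replicate block gave 7 of the 9 (6 higher, 1 lower) and 5205 genes; beyond Trim71 it changed no call among the 9. Within pairs the exact permutation tests of the paralogs cannot go below p = 0.125. Line counts were 0 and became 2 of 9 without mESC 3 (both comparisons) and without mESC 4 (mEpiSC lines). The paralog differences without 1 library ranged from −2.37 to −2.06 for Hmga1 against Hmga2, −1.63 to −1.25 for Igf2bp1 against Igf2bp2, −1.07 to −0.60 for Igf2bp1 against Igf2bp3 and −0.69 to −0.45 for Lin28a against Lin28b; the first 2 passed (exact permutation, adjusted p = 0.0381) without mESC 4 or mEpiSC 4, the Igf2bp3 one without mESC 4 and the last without mEpiSC 4. Igf2bp1, at −0.01, was 0.015 under quantile normalization and 0.054 without both replicate 4 libraries, and −0.48 with fibroblast markers as a covariate; without 1 library at a time it ranged from −0.23 (without mESC 4) to 0.28 (without mEpiSC 4). The cause of these changes was not tested. Each value of the 9 genes rests on at least 580 implied fragments.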
